A study of Mus musculus with 12 samples.

Results

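The peaks described here were regions of the mouse genome whose chromatin was more accessible in normal interfollicular epidermis (IFE) than in each of the 5 other samples measured beside it. Accessibility came from ATAC-seq, an assay whose transposase cuts and tags DNA that is not packed away, and was read as counts over a shared list of 177240 peaks. For each sample, counts of the paired-end run were divided by the total over all peaks and scaled to CPM, and log2(CPM + 0.5) was taken. A peak on chromosomes 1 to 19 was kept where IFE exceeded the highest of the other 5 samples by at least 1 on that scale, a difference called the IFE margin here. Peaks whose paired-end counts summed to more than 3 times their single-end counts were dropped first (75 of 173640). The members were thus chosen by the paired-end values of IFE against all others, and those values are given as a description, with no test. The rule found 6667 peaks, 3.84% of the 173565 peaks it could choose from. The same rule with normal hair follicle (HF) in the place of IFE found 6750.

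The normal groups, IFE and HF, were 1 sample each from wild-type mice. The tumour groups carried p53fl/fl, floxed alleles that Cre removes, and Rosa-YFP+/+, a reporter, beside a further Cre-dependent allele that is not reported here. In K14 Epcam+ (1 sample) Cre was under the K14 promoter of basal keratinocytes. In Lgr5 Epcam+ (2 samples) and Lgr5 Epcam- (1 sample) the Lgr5 promoter, active in stem cells of the hair follicle, drove it, and pairs of Lgr5 Epcam+ values are given in the order of samples 1 and 2. Epcam is an adhesion molecule on epithelial cells, and antibodies to it and to CD45, CD31 and CD140a were used in the sort. Per the labels all mice were female and of mixed strain, and the K14 tumour carries IFE, the Lgr5 tumours hair follicle, as the cell type. The labels used here give no ages and do not say whether the Lgr5 Epcam+ samples are separate animals, so that p-values rest on a spread that may be only technical.

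The interfollicular epidermis is the skin between the hair follicles. Its basal keratinocytes divide on the basement membrane, then move up and switch on a new set of keratins, cross-linking enzymes and lipid enzymes that build the cornified barrier at the surface. Regulators such as p63, Grhl3, Gata3 and the Notch pathway steer this programme, and much of it is controlled by enhancers that lie away from the start sites.

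Each sample had 2 runs. The single-end runs, which the rule used only to drop peaks before the margin was taken, come from the same samples and are no biological replicate. The labels used here do not say whether both runs of a sample are of the same library. Counts in peaks ranged from 16190042 in HF to 32703016 in Lgr5 Epcam+ sample 1 in the paired-end runs, with 17249724 in IFE. The samples also differed in how much of each library lay in peaks, from 27.5% in HF and 34.0% in IFE to 51.1% in Lgr5 Epcam+ sample 1. CPM over peaks does not hold this difference, and for this reason medians and the values of some peaks are also given as fold over background, the counts of a peak over those that its width would hold at the sample's own density of counts outside peaks. On chromosomes 16 to 19 the K14 Epcam+ sample had 7.59% of its single-end counts but 13.6% of its paired-end counts, while in every other sample the 2 shares lay within 1 percentage point of each other. The labelled cell type was checked on marker genes by the summed CPM of the peaks nearest to each. Of 31 suprabasal genes with a peak, 24 had a higher sum in IFE than in HF, but this check is not independent where a gene holds members: at Krt1, with 82.3 CPM in IFE and 19.4 in HF, members gave 77.8 of the former. Among the 13 suprabasal genes without a member, 10 were higher in IFE, and all 13 summed to 538 CPM in IFE and 553 in HF, with Tgm5 at 51.0 and 132. The follicle stem cell gene Lgr5 had 36.9 CPM in IFE and 193 in HF. Basal Krt14 and Krt5 had 131 and 209 CPM in IFE against 121 and 208 in HF. Ptprc, the gene of CD45, had 27.4 CPM in IFE, the lowest of the 6 samples, and the Langerhans cell gene Cd207 5.9, within the range of 5.5 to 7.1 of all samples. Immune marker genes did not all go this way. Cd3g and Cd52 were highest in IFE, at 2.09 and 7.88 CPM, against 1.42 and 6.61 in HF.

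Most of the peaks lay away from promoters, and of the promoters they did cover, those of 5 genes from the gene lists used here are shown. The genes, with 1 exception, make or build the suprabasal and cornified layers. Casp14 is a protease of cornification, Krt10 and Krt77 are suprabasal keratins, and Tgm3 is a transglutaminase that cross-links the cornified envelope. Acer1, the exception, is a ceramidase of the skin barrier. The 250 bases before each start site are given 5′ to 3′ on the gene's strand, from RefSeq on GRCm38.p6 (mm10). The intervals are chr10:78718294-78718543 (minus strand) for Casp14, chr17:56982127-56982376 (minus) for Acer1, chr11:99389365-99389614 (minus) for Krt10, chr15:101869706-101869955 (minus) for Krt77 and chr2:130012090-130012339 (plus) for Tgm3. Capitals mark the letters of 3 motifs on either strand, TTGCNNAA (named for Cebp factors), CAGGTG (an E-box named for Zeb factors) and CAGCTG (another E-box).
Casp14: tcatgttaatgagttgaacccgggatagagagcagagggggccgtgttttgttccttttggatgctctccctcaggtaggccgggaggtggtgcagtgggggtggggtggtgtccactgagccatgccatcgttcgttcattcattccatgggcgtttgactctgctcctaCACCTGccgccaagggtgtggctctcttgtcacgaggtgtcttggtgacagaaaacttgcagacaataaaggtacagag
Acer1: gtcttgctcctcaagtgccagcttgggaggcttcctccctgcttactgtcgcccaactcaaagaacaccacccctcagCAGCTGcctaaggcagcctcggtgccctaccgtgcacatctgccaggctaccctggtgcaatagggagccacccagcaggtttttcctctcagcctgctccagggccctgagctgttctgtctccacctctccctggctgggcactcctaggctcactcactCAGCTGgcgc
Krt10: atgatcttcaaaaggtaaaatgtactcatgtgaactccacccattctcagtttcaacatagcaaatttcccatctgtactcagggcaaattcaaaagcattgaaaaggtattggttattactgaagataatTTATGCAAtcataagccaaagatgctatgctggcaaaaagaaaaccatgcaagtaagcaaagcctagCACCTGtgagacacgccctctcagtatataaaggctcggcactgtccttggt
Krt77: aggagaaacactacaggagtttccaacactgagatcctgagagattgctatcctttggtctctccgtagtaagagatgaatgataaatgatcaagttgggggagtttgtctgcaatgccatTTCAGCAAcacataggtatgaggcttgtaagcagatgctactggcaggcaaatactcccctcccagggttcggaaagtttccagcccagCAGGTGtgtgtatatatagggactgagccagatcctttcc
Tgm3: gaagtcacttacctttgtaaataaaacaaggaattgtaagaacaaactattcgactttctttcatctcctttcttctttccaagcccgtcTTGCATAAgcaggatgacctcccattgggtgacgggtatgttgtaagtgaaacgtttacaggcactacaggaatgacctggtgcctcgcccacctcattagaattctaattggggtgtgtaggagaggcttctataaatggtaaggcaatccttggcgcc

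The peak over the Casp14 promoter, chr10:78717183-78718666, was the third highest of all members in IFE. Its paired-end level was 75.8 CPM in IFE, 17.7 in HF, 5.38 in K14 Epcam+, 3.94 and 7.34 in Lgr5 Epcam+ and 2.71 in Lgr5 Epcam-. The follicle stood between the epidermis and the 4 tumour samples. In the single-end runs the order of IFE and HF was the same, with 47.3 CPM in IFE and 17.5 in HF, and the highest tumour sample had 7.40. The Krt10 promoter peak had 12.2 CPM in IFE, 3.21 in HF and 0.345 to 0.747 in the tumours. For Krt77 the promoter peak had 11 CPM in IFE, 4.08 in HF and 0.306 to 1.05 in the tumours. The keratin promoters were low in all 4 tumour samples, at no more than 1.05 CPM. The Tgm3 promoter peak had 8.23 CPM in IFE, 2.53 in HF and 0.642 to 1.12 in the tumours. The Acer1 promoter peak had 33.6 CPM in IFE, 11.7 in HF and 1.21 to 3.09 in the tumours. In all 5 peaks HF was second, a place that the rule did not fix. Over background HF was second too, but less far from the tumours, with 11.4-fold at the Casp14 promoter against 66.3 in IFE and 10.5 in Lgr5 Epcam+ sample 2, and 2.40-fold at that of Tgm3 against 10.6 and 2.37.

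Across all 6667 peaks the median paired-end level was 9.04 CPM in IFE, 2.78 in HF, 1.44 in K14 Epcam+, 0.948 and 1.12 in Lgr5 Epcam+ and 1.16 in Lgr5 Epcam-. The median IFE level was above that of 84.8% of all kept peaks, which follows in part from the rule, since it selects on the IFE value. Behind the median IFE level stood 156 paired-end counts, and 88 members had under 50. The median fold of IFE over the others, on log2(CPM + 0.5), was 2.68 over HF, 4.45 over K14 Epcam+, 5.66 and 5.22 over Lgr5 Epcam+ and 5.45 over Lgr5 Epcam-. IFE and HF are bulk groups of 1 sample each, and fewer cells of a type cannot be told apart from less open chromatin per cell.

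**Figure D1:**
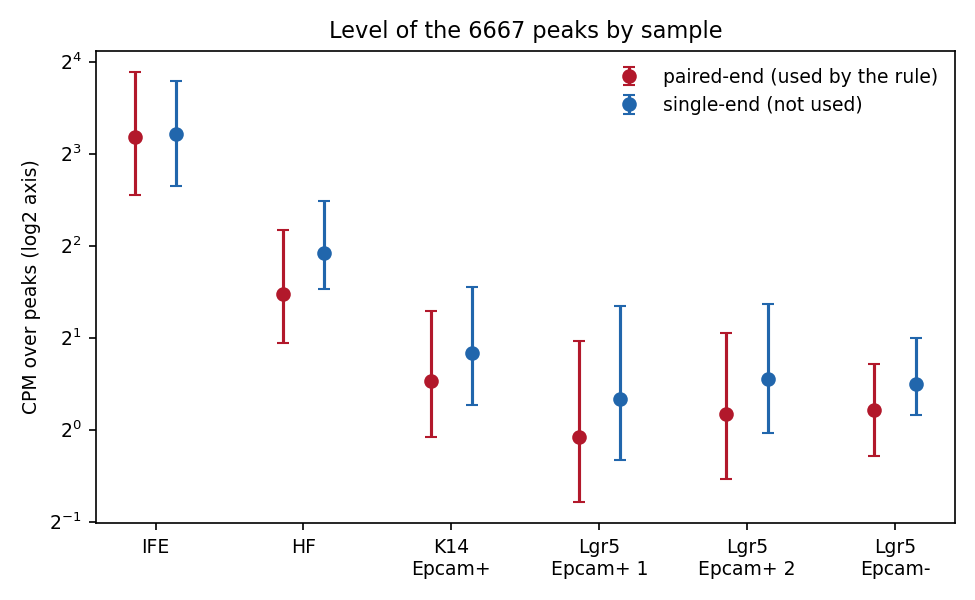
Median level of the 6667 peaks in each sample, in CPM over peaks on a log2 axis, with bars from the lower to the upper quartile over peaks, for the paired-end runs that the margin of the rule used and the single-end runs that it did not. IFE is highest by construction in the paired-end runs, at 9.04 CPM, and HF is next at 2.78.

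The margin was narrow for many members and wide for few. Its median was 1.35, and 2145 peaks (32.2%) had a margin under 1.2, while 531 (7.96%) had one of at least 2. Near the limit of 1, the levels of the peaks just inside and just outside it overlapped. Ston2, Mfsd14a and Shq1, just inside, had 12.6, 13.1 and 10.3 CPM in IFE against 6.04, 6.30 and 4.88 in the next highest sample. Def8, Mbnl2 and Prss32, just outside, had 25.6, 17.7 and 9.16 CPM in IFE against 12.5, 8.62 and 4.33.

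The single-end runs gave the same margin from counts that the margin of the rule had not used. Its median over the members was 1.03, with a lowest value of -0.55 and a highest of 2.30. A single-end margin of at least 1 was found in 3615 members (54.2%), against 2.45% of all kept peaks, and in 644 peaks that were no members. IFE was the highest single-end sample in 6643 members (99.6%), against 22% of all kept peaks, and 24 members had another sample as high or higher. The share with a single-end margin of at least 1 was 68.2% among members at or above the median IFE level and 40.2% below it. It was 54.0% on chromosomes 1 to 14 and 55.0% on chromosomes 15 to 19, where the K14 Epcam+ single-end counts were low. Differences between IFE and HF were smaller in the single-end runs over all peaks too, with an SD over peaks of 0.63 against 0.79 in the paired-end runs.

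**Figure D2:**
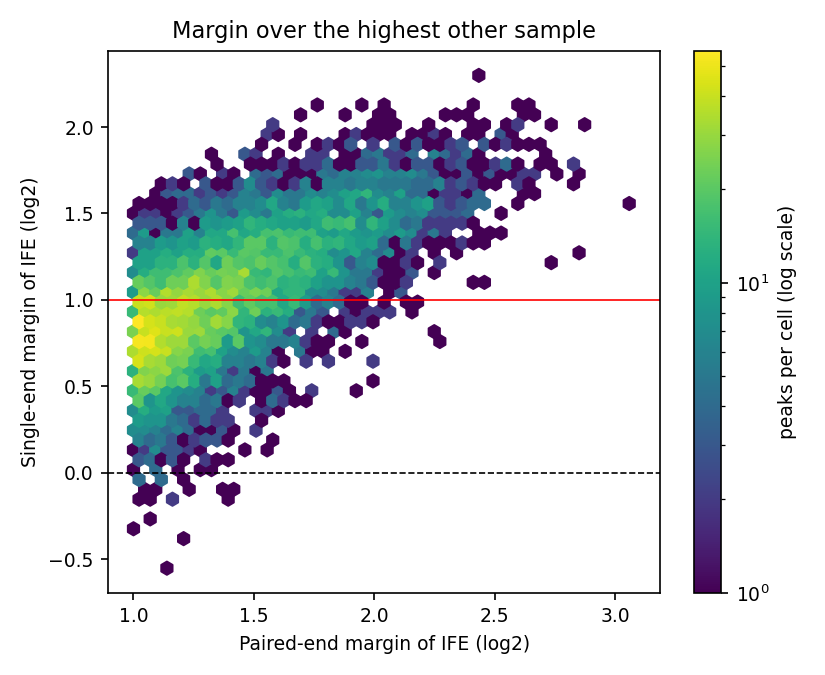
IFE margin of the 6667 peaks in the paired-end runs (x axis, at least 1 by the rule) against the single-end runs (y axis), both in log2 units, with colour giving the number of peaks per cell on a log scale. The red line marks a single-end margin of 1, which 3615 peaks reach, and the dashed line marks 0, which 24 do not pass.

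The widest single-end margins, among members of at least the median level, belonged to peaks near genes outside the gene lists used here. A peak inside Dock2, a guanine nucleotide exchange factor known from leukocytes, led with a single-end margin of 2.30. In the single-end runs it had 28.9 CPM in IFE, 5.47 in HF and 0.926 to 2.15 in the tumours. A peak inside Ikzf2, a zinc-finger factor also known from lymphocytes, had 15 CPM in IFE, 3.02 in HF and 0.842 to 1.36 in the tumours. Both stood far above every other sample in either run. The immune marker list held 0 members among its 65 peaks, against 3.81% of all peaks near a gene. With so few peaks its share cannot be told from that one, since its upper Wilson limit was 5.58%. Whether immune cells gave the Dock2 and Ikzf2 peaks was not tested. Peaks inside Dlgap1, Zcchc8, Fam124b, Slc2a12 and Cdh4 and near Rcan1, Tm6sf1, Olfm1, Smg1 and Prxl2b made up the remaining 10, with single-end margins from 2.01 to 2.13 and single-end IFE levels from 12.1 to 26.6 CPM.

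On the CPM scale HF was the next highest sample in 5185 members (77.8%), against 32.5% of all kept peaks. Without HF among the others, 17235 peaks would meet the rule, and of the 6667 members 5767 in place of 3615 would have a single-end margin of at least 1. HF stood at least 1 log2 unit above every tumour sample in 1320 members (19.8%) and above them by less in 3865 (58.0%), and a tumour sample was as high or higher in 1482 (22.2%). The picture differed on the scale of fold over background. There HF was next in 2051 members (30.8%), Lgr5 Epcam+ sample 1 in 2075 (31.1%) and sample 2 in 1274 (19.1%). The median fold over background of the members was 10.4 in IFE, 2.40 in HF, 2.07 in K14 Epcam+, 2.31 and 2.21 in Lgr5 Epcam+ and 1.58 in Lgr5 Epcam-. Over all kept peaks it was 2.62 in IFE and 2.12 in HF, but 3.64 in K14 Epcam+, 4.69 and 4.16 in Lgr5 Epcam+ and 3.58 in Lgr5 Epcam-. The follicle and the Epcam+ tumours therefore had like medians in these peaks once each was set against its own background. IFE had the highest median on both scales, which the rule largely sets, since both scales use the paired-end counts it selected on.

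Open only in IFE was too strong a description for many of the peaks. With under 3-fold over background taken as little signal, 2857 members (42.9%) were under it in all 5 other samples, and the rest were at or above it in at least 1. This joint share was not counted over all kept peaks, so that it cannot be called particular to the members. In single samples the share under 3-fold was 64.2% in HF, 71.6% in K14 Epcam+, 62.0% and 66.3% in Lgr5 Epcam+ and 87.9% in Lgr5 Epcam-. Over all kept peaks it was 66.7% in HF, near the members' share, but 41.0% in K14 Epcam+, 33.4% and 36.0% in Lgr5 Epcam+ and 43.6% in Lgr5 Epcam-. In IFE 21 members were under it. The peak inside Otud7a, a deubiquitinase gene, shows the other extreme, with 66.5-fold over background in IFE, 20.4 in HF, 19.8 in K14 Epcam+, 41.4 and 46.6 in Lgr5 Epcam+ and 17.9 in Lgr5 Epcam-. It was a member by level and open in all 6 samples. The promoter peak of Rtkn had 67.9-fold in IFE and 66.6 in Lgr5 Epcam+ sample 1, with 18.6 in HF, so that its margin rested on the CPM scale.

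**Figure D3:**
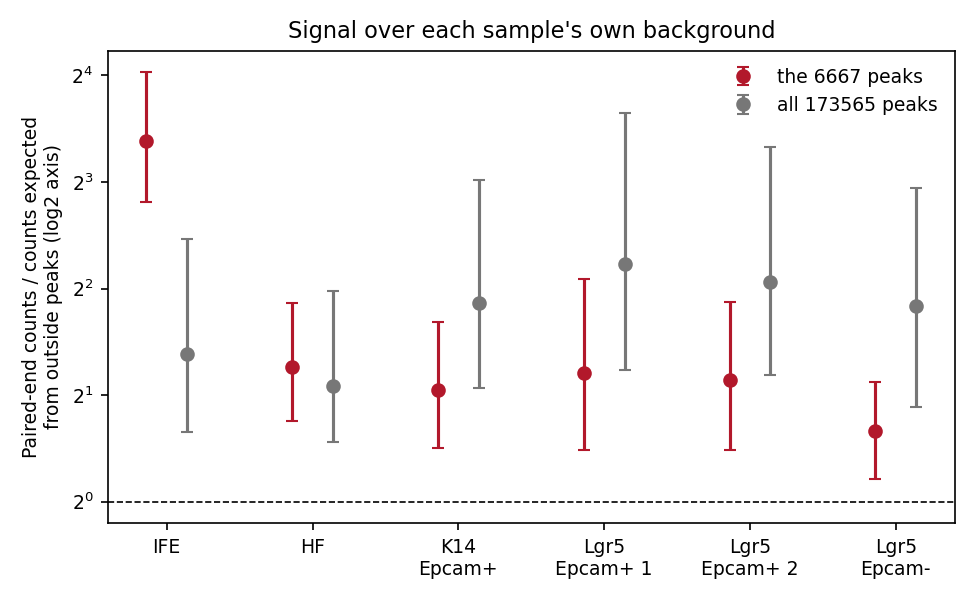
Paired-end counts over those expected from the sample's own density outside peaks, on a log2 axis, as medians with quartile bars over peaks. The 6667 peaks reach 10.4-fold in IFE and 1.58- to 2.40-fold elsewhere, while all 173565 kept peaks have higher medians in the 4 tumour samples (3.58 to 4.69) than in IFE (2.62) and HF (2.12).

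The strongest members in IFE lay near genes of varied roles. The peak inside Rab30, a small GTPase gene, was highest, with 82.3 CPM in IFE, 37.6 in HF, 10.9 in K14 Epcam+, 16.9 and 24.7 in Lgr5 Epcam+ and 6.91 in Lgr5 Epcam-. The peak inside Alad, an enzyme of haem synthesis, had 76.9 CPM in IFE, 36.4 in HF and 5.32 to 10.2 in the tumours. In both, HF was close to the limit that the rule sets. Over background the Rab30 peak had another order, with 24.2-fold in HF and 30.0 and 35.4 in Lgr5 Epcam+. HF was next after IFE at 8 of the 12 strongest peaks by CPM and at 5 by fold over background. The peak inside Rab27a, a small GTPase of vesicle secretion, had 64.4 CPM in IFE, 11.1 in HF, 4.83 in K14 Epcam+, 3.88 and 9.28 in Lgr5 Epcam+ and 1.69 in Lgr5 Epcam-. Its margin of 2.48 was the widest of the 12 strongest peaks, and it held at 1.73 in the single-end runs. The peak inside Kcnj16, a potassium channel gene, had 64.0 CPM in IFE, 15.1 in HF and 1.26 to 3.73 in the tumours. Peaks near Prss23, Krt77 and Extl1, inside Otud7a and at the promoters of Casp14, Rtkn, Plbd1 and Zfp692 completed the 12. For the counts alone, the exact 95% interval of the log2 ratio of IFE to HF was 1.91 to 2.29 for Casp14 and 0.99 to 1.27 for Rab30. These intervals cover counting error only. They use the paired-end counts that the rule selected on, so that they are no test of a difference.

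The members were placed along the genome much as other peaks, apart from promoters. Of them 100 (1.5%) overlapped a promoter, the window from 250 bases before to 50 after the start of a protein-coding gene, against 6.40% of all kept peaks. Inside a gene lay 3353 (50.3%, against 49.5%), within 50 kb of one 2025 (30.4%, against 26.9%), and farther away 1189 (17.8%, against 17.2%). The peaks that were high in HF by the same rule were at promoters in 0.993% and far from genes in 28.5%. Members had a median width of 1081 bp, against 1098 bp over all kept peaks, and a median distance to the nearest start site of 39.8 kb, against 38.3 kb. For the peaks of HF that distance was 76.9 kb. The share of peaks that were members ran from 2.79% on chromosome 6 to 5.27% on chromosome 9.

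Members lay near each other. Another member was within 50 kb of 3967 of them (59.5%), while 30.3% of the other peaks had a member that near. There were 156 stretches of 3 or more members in a row with no other peak between them, and these held 531 members. The longest, 9 peaks at Clca3a2, a gene of the chloride channel accessory family, was at chr3:144779547-144798760. Summed over it, the level was 55.7 CPM in IFE, 15.3 in HF, 7.27 in K14 Epcam+, 4.13 and 4.58 in Lgr5 Epcam+ and 6.81 in Lgr5 Epcam-. A stretch of 5 at Krt1, chr15:101834686-101851259, had 77.8 CPM in IFE, 17.0 in HF, 9.41 in K14 Epcam+, 7.77 and 12.1 in Lgr5 Epcam+ and 7.20 in Lgr5 Epcam-. At Krt1, 5 of 6 peaks were members. Stretches of 5 also lay at Gata3 (chr2:9856003-9868251), Pou3f1 (chr4:124629771-124644538), Zp3r, Gk2 and between Satb1 and Kcnh8, and 1 of 6 at Rasgrf1.

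Of 17514 genes that were nearest to a kept peak within 50 kb, 3324 had a member, 2209 of them 1 and 128 at least 5. Rora, which encodes a nuclear receptor of epidermal differentiation, had the most, 18 of 100 peaks. Then came Dlg2, a scaffold gene, with 13 of 99, Ikzf2 with 12 of 29, Clca3a2 with 11 of 17, the transcription factor gene Sox6 with 11 of 51, Pdzd2 with 11 of 75, Il20ra with 10 of 20 and Exph5 with 10 of 22. By share the order was another. At Clca3a2 the members were 64.7% of its peaks, at Il20ra, a subunit of receptors for epidermal cytokines, 50%, and at Exph5, an effector of Rab27 proteins known from skin fragility, 45.5%. The members of Rora summed to 197 CPM in IFE, 54.2 in HF, 26.0 in K14 Epcam+, 13.7 and 16.2 in Lgr5 Epcam+ and 21.7 in Lgr5 Epcam-. Those of Exph5 summed to 169 CPM in IFE, 56.5 in HF and 18.3 to 37.3 in the tumours.

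Genes of the upper epidermis had more of these peaks than genes at large. Over 17 lists, a peak was given to the nearest gene within 50 kb, and 3.81% of all peaks with such a gene were members. Of the 250 peaks near suprabasal and cornified envelope genes 45 were members (18.0%, 95% Wilson interval 13.7 to 23.2%), at 18 of 31 genes. Near barrier lipid genes 23 of 225 were (10.2%, 6.91 to 14.9%), at 11 of 22 genes, and near transcription factors of epidermal differentiation 57 of 667 (8.55%, 6.65 to 10.9%), at 19 of 30. The intervals cover counting error only, peaks of a gene are not independent, and the lists are described here without a test. In the single-end runs 28, 15 and 30 of these members also had a margin of at least 1. By contrast, near hair follicle stem cell genes 2 of 340 peaks were members (0.588%), while 59 (17.4%) were in the set that was high in HF. The latter set held 3.89% of all kept peaks, and 4.80%, 2.22% and 3.60% of peaks near suprabasal, lipid and transcription factor genes. Over all peaks the suprabasal and lipid lists had 1991 and 1638 CPM in IFE and 1464 and 1145 in HF. The highest tumour values were 1136 and 1505. Not all their genes stood highest in IFE. Tgm1 had 17.5 CPM in IFE, 18.9 in HF and 7.44 to 53.0 in the tumours. For Fa2h these were 23.0, 23.6 and 31.9 to 93.1.

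**Figure D4:**
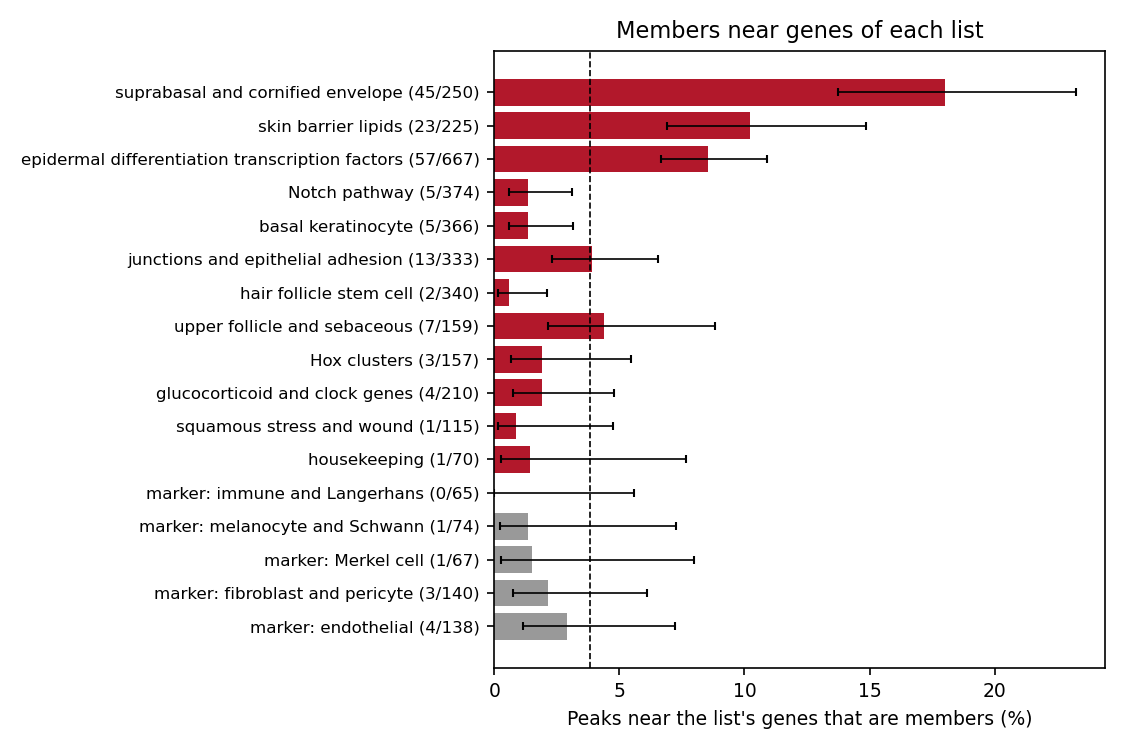
Share of the peaks near each list's genes that are members, in percent, with the counts in brackets, 95% Wilson intervals as bars and the share over all peaks near a gene (3.81%) as a dashed line. Red bars are gene lists and grey bars are markers of other cell types; the suprabasal list stands highest at 18.0% and the follicle stem cell list is at 0.588%.

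Among the cornified envelope genes, Tgm3 had 7 members of 28 peaks, Krt1 5 of 6, Krt77 5 of 9, Dsg1a 5 of 12 and Krt10 4 of 7. The 13 genes of this list without a member included Krt2, Ivl, Lor and Tgm1. The strongest Krt77 peak, chr15:101855170-101856227, lay 2.50 kb from the gene. It had 58.1 CPM in IFE, 19.1 in HF, 1.59 in K14 Epcam+, 0.979 and 0.864 in Lgr5 Epcam+ and 0.580 in Lgr5 Epcam-. Over background the Lgr5 Epcam- value was 0.840-fold, so that this peak was at background there, while HF had 17.2-fold. A peak 12.8 kb from Krtdap, which encodes a secreted peptide of differentiating keratinocytes, had 47.4 CPM in IFE, 16.8 in HF, 1.54 in K14 Epcam+, 2.17 and 6.30 in Lgr5 Epcam+ and 1.55 in Lgr5 Epcam-. The Lgr5 Epcam+ samples differed from each other there. Inside Dsg1a, a desmosomal cadherin gene of the upper epidermis, a peak had 28.8 CPM in IFE, 11.9 in HF, 4.78 in K14 Epcam+, 3.85 and 6.13 in Lgr5 Epcam+ and 1.40 in Lgr5 Epcam-. The filament-aggregating genes Flg, Flg2, Hrnr and Rptn had 1 member each, of 3, 8, 11 and 7 peaks, at 2.6 to 12.9 CPM in IFE.

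Of the barrier lipid genes, Elovl4, which elongates the very long fatty acids of barrier lipids, had the most members, 5 of 12 peaks. Its strongest had 24.7 CPM in IFE, 5.19 in HF and 1.35 to 1.47 in the 4 tumours. Inside Lipk, a lipase gene, a peak had 36.9 CPM in IFE, 16.9 in HF and 4.30 to 13.9 in the tumours. Abhd5 had 4 members of 24 peaks and Acer1 3 of 6. Other genes of epidermal lipid transport and synthesis had 2 each, of 30 peaks at Abca12, 19 at Cers3 and 7 at Lipn. Over all peaks of Abca12 the sums were 218 CPM in IFE, 145 in HF and 185 in K14 Epcam+. They were 338 and 266 in Lgr5 Epcam+ and 64.2 in Lgr5 Epcam-.

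Of the transcription factors, Rora, Gata3 (9 of 25 peaks), Pou3f1 (6 of 18) and Grhl3 (4 of 24) had the most members. The strongest Gata3 peak, inside the gene at chr2:9859619-9861647, had 40.5 CPM in IFE, 8.83 in HF, 7.72 in K14 Epcam+, 3.36 and 2.76 in Lgr5 Epcam+ and 7.05 in Lgr5 Epcam-. HF, K14 Epcam+ and Lgr5 Epcam- were within 2 CPM of each other. The strongest Rora peak, chr9:69227259-69228288, had 37.7 CPM in IFE, 5.37 in HF, 1.10 in K14 Epcam+, 0.642 and 0.734 in Lgr5 Epcam+ and 1.30 in Lgr5 Epcam-. A peak 8.54 kb from Prdm1, a repressor that acts in terminal differentiation, had 28.2 CPM in IFE, 9.33 in HF, 10.2 in K14 Epcam+, 7.22 and 9.59 in Lgr5 Epcam+ and 4.93 in Lgr5 Epcam-. A peak 38.1 kb from Maf had 30.7 CPM in IFE, 10.6 in HF and 2.27 to 4.33 in the tumours. Zfp750, a regulator of terminal differentiation, had 1 member of 3 peaks, at 19.3 CPM in IFE, 5.37 in HF, 7.52 in K14 Epcam+, 6.18 and 4.84 in Lgr5 Epcam+ and 1.16 in Lgr5 Epcam-. Trp63, the gene of p63, had 2 of 67.

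**Figure D5:**
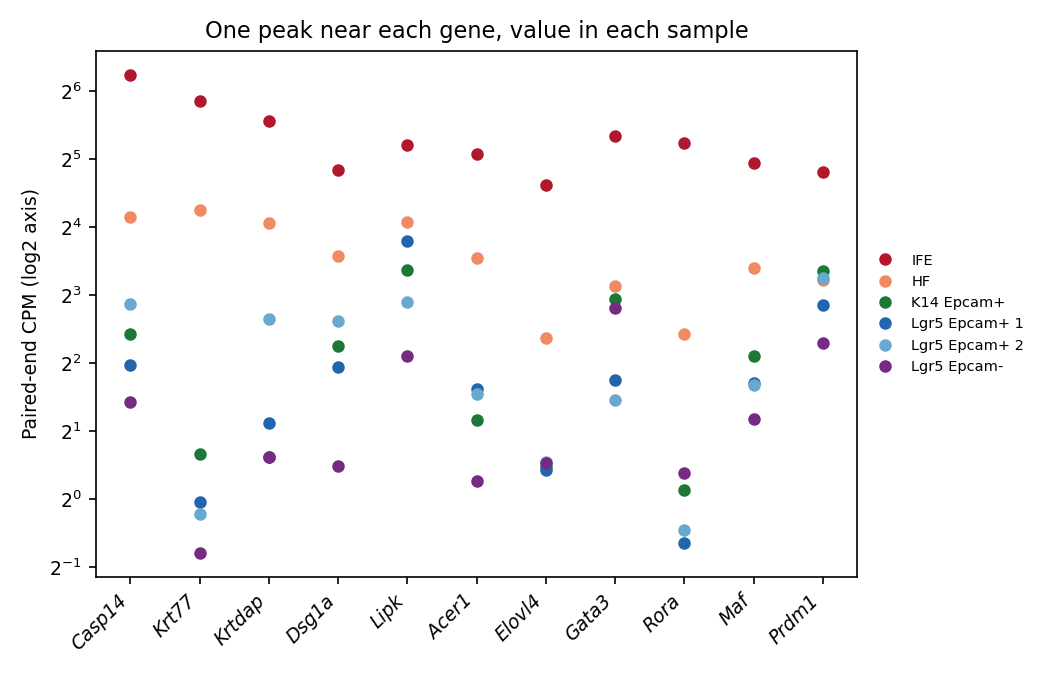
Paired-end CPM, on a log2 axis, of 1 peak near each gene shown of the cornified envelope, barrier lipid and transcription factor lists, up to 4 per list by IFE level, with 1 point per sample. IFE is highest in each by the rule, and by CPM HF is second for 10 of the 11 genes shown (7 by fold over background), while at Prdm1 Epcam+ tumour samples stand above HF.

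The Notch pathway, which drives keratinocytes out of the basal layer, had 5 members of 374 peaks (1.34%). A peak 11.5 kb from Hes5, a target of Notch signalling, had 21.2 CPM in IFE, 2.90 in HF, 3.44 in K14 Epcam+, 2.23 and 1.43 in Lgr5 Epcam+ and 0.773 in Lgr5 Epcam-, with a single-end margin of 1.91. A peak inside Maml2, a coactivator, had 27.7 CPM in IFE, 9.51 in HF and 2.57 to 6.52 in the tumours. Inside Notch2, a receptor, a peak had 22.7 CPM in IFE, 7.35 in HF, 9.16 in K14 Epcam+, 10.4 and 9.11 in Lgr5 Epcam+ and 3.04 in Lgr5 Epcam-, so that the Epcam+ tumours were above HF. The remaining ones were inside Rfng, at 4.17 CPM in IFE, and near Nrarp, at 3.0. Basal keratinocyte genes had 5 members of 366 peaks (1.37%), at Lama3, Dst and Itga6, with 0 near Krt5, Krt14 or Krt15. Junction genes had 13 of 333 (3.90%), led by a peak inside Tjp1, the gene of ZO-1, with 46.4 CPM in IFE, 13.7 in HF and 2.17 to 6.42 in the tumours. A peak inside Pkp1 had 43.0 CPM in IFE, 20.5 in HF, 20.9 and 21.2 in Lgr5 Epcam+ and 7.78 to 16.7 in the other tumours. Others were inside Cdh1, with 28.3 CPM in IFE, 11.7 in HF and 7.20 to 11.8 in the tumours, and Ocln, with 25.7, 12 and 1.84 to 3.73. Upper follicle and sebaceous genes had 7 of 159 (4.40%), glucocorticoid and clock genes 4 of 210 (1.90%) and Hox genes 3 of 157 (1.91%). Stress genes had 1 of 115 (0.870%) and housekeeping genes 1 of 70 (1.43%), against 3.81% of all peaks near a gene.

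Few of the peaks lay near markers of other cell types, but these lists held few peaks in all. The shares of the 5 lists ran from 0% to 2.90%, against 3.81% of all peaks near a gene. Their upper Wilson limits ran from 5.58% to 7.98%, so that no list's share can be told from that of all peaks. The immune list had 0 members of 65 peaks and a summed level of 182 CPM in IFE, the lowest of the 6 samples, against 187 in HF and 225 to 278 in the tumours. The melanocyte list had 1 of 74 (a peak inside Mitf, 23.5 CPM in IFE and 9.57 in HF), with 328 CPM in IFE, 413 in HF and 217 to 277 in the tumours. The Merkel cell list had 1 of 67, with 157 CPM in IFE, 210 in HF and 231 to 393 in the tumours. The endothelial list had 4 of 138, at Flt1 and Vwf, with 529 CPM in IFE, 513 in HF and 580 to 721 in the tumours. The fibroblast list had 3 of 140, all near Thy1, with 344 CPM in IFE, 374 in HF and 358 to 949 in the tumours. Thy1, which also marks T cells of the mouse epidermis, had 60.7 CPM over its 3 members in IFE, 21.2 in HF and 4.3 to 6.7 in the tumours. The part of such cells in single peaks was not tested.

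The promoters that members covered were poorer in CpG than promoters with any peak. There were 106 such windows, of 98 genes, with a median GC content of 51.5% and a median of 5 CpG in 300 bases. In the 13336 windows with any kept peak these were 61% and 20, and in all 20085 windows 57% and 14. The letters of 22 motifs were counted on both strands in these windows, overlapping matches included, as a description with no claim of a bound site. CAGGTG was in 34.0% of member windows, 18.9% of those with a peak and 20% of all. TTGGCA, named for Nfi factors, was in 25.5%, 11.2% and 13.1%, CAGCTG in 21.7%, 15.5% and 15.6%, and TTGCNNAA in 17.0%, 8.26% and 10.3%. AGATAA, named for Gata factors, was in 16%, 6.01% and 9.57%, and TGTGGTT (Runx) in 10.4%, 3.53% and 4.77%. Lower shares were found for GCCNNNGGC (Tfap2), with 13.2%, 25.5% and 20.2%, AGGGGGC (part of the Ctcf motif), with 7.55%, 16.5% and 13.1%, and GGAAGT (Ets), with 20.8%, 26.7% and 25%. These shares move with base composition, whose part was not tested.

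The other 13 motifs were in 0 to 42 of the 106 windows, and their shares are given for member windows, windows with a peak and all windows. ATGCAAAT (Pou octamer) had 4.72%, 1.54% and 1.67%, from 5 member windows. ACATGT (p63) had 5.66%, 2.14% and 3.94%, from 6. For TAATTA (homeobox) the shares were 5.66%, 2.51% and 4.48%, for ATCAAAG (Tcf-Lef) 4.72%, 2.33% and 3.26%, for CCACACCC (Klf) 5.66%, 3.94% and 3.65%, for TGANTCA (AP-1) 8.49%, 5.95% and 7.06%, and for ACAAAG (Sox) 17.9%, 13.1% and 16.6%. For CACGTG (E-box) they were 8.49%, 9.67% and 7.89%, for GTGGGAA (Rbpj) 5.66%, 6.02% and 5.95%, for CACNAG (Hes) 39.6%, 40.2% and 41.7%, for AGGTCA (nuclear receptors) 11.3%, 11.8% and 14.7%, for ACATTCC (Tead) 1.89%, 2.77% and 3.43%, and for AACCGGTT (Grhl) 0%, 0.232% and 0.184%. The Grhl letters, in 0 member windows, were rare everywhere. In the 5 promoters printed above, TTGCNNAA was found once each for Krt10, Krt77 and Tgm3, CAGGTG once each for Casp14, Krt10 and Krt77, and CAGCTG 2 times for Acer1. Krt77 had a further CAGCTG after its start, in the bases not printed.

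Among the samples outside IFE, the members could be compared by edgeR's quasi-likelihood test, fitted over all peaks and all 6 samples with Benjamini-Hochberg adjustment. The spread came from the 2 Lgr5 Epcam+ samples, and each lone sample was assumed to vary alike. In Lgr5 Epcam+ against HF, 1078 members (16.2%) were lower at an adjusted p under 0.05 and 0 were higher, against 7.41% lower and 8.88% higher of all 177238 peaks tested. DESeq2 called 571 lower and 0 higher of 6413 members it tested, against 4.47% and 11% of all peaks it tested. At an unadjusted p under 0.05 edgeR had 2708 members lower (40.6%) and 6 higher (0.09%), against 15.1% and 16.3% of all peaks. All 6667 members passed the filter on low counts, and their median log2 difference was -1.06, against 0.01 over all peaks. The rule caps all 5 other samples but does not order them. The test used both runs summed, which hold the paired-end counts that the rule capped. Peaks as high in a tumour sample as in IFE were thus left out of the members but not of all peaks. The contrast of members with all peaks is therefore partly set by the choice, above all for calls higher in Lgr5 Epcam+.

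This difference depended on the scale. Scaled to the counts outside peaks in place of TMM, the members had 163 lower (2.44%) and 78 higher (1.17%), against 3.01% and 30.3% of all peaks, with a median of -0.05 against 1.03. The share of members called lower was then below that of all peaks. The members' median less that of all peaks was -1.07 with TMM, a distance that a change of scaling cannot move much since it shifts all peaks alike. Over all members the median fold over background was 2.40 in HF and 2.26 in Lgr5 Epcam+, with HF higher in 49.8%, against 21.2% of all kept peaks. The part of the share of counts in peaks in the calls was not tested.

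The largest drops on the TMM scale were near Zfp939 and far from any gene. The peak 1.12 kb from Zfp939, chr7:39478552-39479687, had 43.8 CPM in IFE, 15.6 in HF and 0.306 to 3.09 in the tumours (log2 difference of Lgr5 Epcam+ from HF -4.64, SE 0.58, edgeR adjusted p = 0.000507). The next ones lay 82.2 to 222 kb from the nearest genes, Ankrd34c, 4931429L15Rik and Atp5g3. Among differentiation genes, the Krt77 peak fell by 3.54 on the log2 scale (SE 0.47, edgeR adjusted p = 0.000602) and the strongest Rora peak by 2.60 (SE 0.56, adjusted p = 0.00768). The Casp14 promoter peak had a log2 difference of -1.24 (SE 0.38, adjusted p = 0.0427) and the Acer1 promoter peak -1.70 (SE 0.52, adjusted p = 0.0404). At Zbtb16, the gene of the zinc-finger factor PLZF, a peak inside the gene had 41.2 CPM in IFE, 16.9 in HF and 1.07 to 1.94 in the tumours, and fell by 2.84 (SE 0.55, adjusted p = 0.00459). Other strong members did not pass the test, with log2 differences of 0.52 for Rtkn, -0.02 for Prss23, -0.33 for Rab27a and -0.99 for Gata3.

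Lgr5 Epcam- was compared with Lgr5 Epcam+ in the same fit. There 186 members (2.79%) were lower and 19 (0.285%) higher, against 5.27% and 6.69% of all peaks, and with total-count scaling 211 were lower (3.16%) and 62 higher (0.93%), against 5.69% and 9.68%. The median log2 difference was -0.08, against -0.05 over all peaks, and its sign was not stable, with 0.10 under total-count scaling and 0.017 without Lgr5 Epcam+ sample 2. Calls in this set were therefore fewer than over all peaks in both directions, and the levels of most members were low in all Lgr5 samples. The cap that the rule puts on these samples partly sets both. The peak at the promoter of Rab25, a GTPase of epithelial cells, had 48.1 CPM in IFE, 21.2 in HF, 19.5 in K14 Epcam+, 22.3 and 15.6 in Lgr5 Epcam+ and 0.870 in Lgr5 Epcam- (log2 difference -3.91, SE 0.47, edgeR adjusted p = 0.000956). All Epcam+ and normal samples were open there and Lgr5 Epcam- was at 1.2-fold over background. Peaks inside Abcc3, a transporter gene, Acsbg1, an acyl-CoA synthetase gene, and Plxnb1, a semaphorin receptor gene, had log2 differences of -4.04, -3.60 and -3.23 (edgeR adjusted p = 0.00188, 0.00129 and 0.00115). Notch2, with -2.07 (SE 0.54, edgeR adjusted p = 0.0258), and Pkp1, with -1.63 (SE 0.35, adjusted p = 0.0112), were lower as well.

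The 19 higher ones were led by a peak inside Ift43, a gene of ciliary transport. It had 25.7 CPM in IFE, 6.30 in HF, 3.63 in K14 Epcam+, 1.28 and 1.51 in Lgr5 Epcam+ and 11.4 in Lgr5 Epcam- (log2 difference 2.78, SE 0.52, edgeR adjusted p = 0.00642). Lgr5 Epcam- was the next highest sample there, at 9.85-fold over background. Peaks inside Lrmda, near Pkia and far from Trib2 followed, with log2 differences of 2.33, 2.25 and 2.25 and levels of 3.48 to 5.12 CPM in Lgr5 Epcam-.

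In Lgr5 Epcam+ against K14 Epcam+, a comparison added after the data were seen, edgeR called 0 members in either direction, against 0.000564% higher and 0.0079% lower of all peaks, and DESeq2 called 0 as well, against 0.0169% and 0.0135%. Both sum the runs, and the single-end run of K14 Epcam+ was low on chromosomes 16 to 19 (7.59% of its counts, against 13.6% paired-end). With paired-end runs alone edgeR also called 0 members, against 0.00339% higher and 0.0147% lower of all peaks. At an unadjusted p under 0.05 edgeR had 57 members higher (0.855%) and 152 lower (2.28%), against 3.03% and 2.63% of all peaks. The median log2 difference of the members was -0.18, against 0.03 over all peaks, and it turned to 0.18 against 0.39 when scaled to the counts outside peaks. The K14 tumour, whose labelled cell type is the interfollicular epidermis, had a median of 1.44 CPM in the members and was the next highest sample in 610 of them (9.15%), against 16.6% of all kept peaks. The other tumour samples were next in fewer members. These were 4.24% and 4.62% for Lgr5 Epcam+ (12.1% and 12.5% of all kept peaks) and 4.21% for Lgr5 Epcam- (26.4%). By fold over background K14 Epcam+ was next in 12.1% of the members.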

How the data were processed

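Chromatin accessibility of 6 samples in 5 groups was read from 12 tables of raw counts per peak, 1 single-end and 1 paired-end run per sample, as the authors deposited them. Per the submitters' processing notes, Bowtie2, HOMER, bedtools and HTSeq were used on mm10; the sources used here do not give versions, read filters or how the shared peaks were called. Reads outside peaks, which HTSeq lists apart, served only as background, over a genome of 2722 Mb taken as the sum of the last peak ends.

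Runs were summed per sample for edgeR 4.0.16 (R 4.3.3, limma 3.58.1): filterByExpr with a minimum count of 10, TMM, a quasi-likelihood fit of all 6 samples (robust), and Benjamini-Hochberg adjustment over all 177238 peaks kept, with a threshold of 0.05. The biological coefficient of variation was 0.325, from 1 residual degree of freedom. The script was tested on simulated data. Levels are paired-end CPM unless stated. Genes and promoters came from RefSeq (GRCm38.p6), and 300 of 301 list entries were matched by symbol (Bmal1 was not).

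The members and lists were chosen with earlier results of these data known. Peaks were named by rule: the 12 highest in IFE and the 12 with the largest single-end margins, up to 4 per list, the 8 genes with most members, 3 on each side of the limit, and up to 4 called in each direction per comparison; 1 of these genes is not reported here. Promoters were printed for every list gene whose promoter a member overlapped. List genes named only by a count or a sum were chosen after their values were seen. Alternatives were other pseudocounts, margins, scalings and filters, DESeq2 1.42.0, single runs and leaving out a sample: each of the 5 other than IFE for the rule, and each Lgr5 Epcam+ sample for the tests.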

Additional observations from a re-analysis of the deposited data

How the results depend on the processing

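The number of peaks stayed within 1.5 times 6667 under a pseudocount of 1 (5422), summed runs (5210), TMM (7361) and scaling to counts outside peaks (6351, of which 4749 were shared). A margin of 2 gave 531, and leaving out 1 other sample gave 6888 to 17235, the highest without HF. The single-end count of 3615 became 3648 to 5767 with a sample left out, again highest without HF.

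In Lgr5 Epcam+ against HF, members lower were 2448 with total counts (36.7%, against 13.8% of all peaks), 571 with DESeq2 (8.90%, against 4.47%) and 163 with counts outside peaks (2.44%, against 3.01%); members higher were 2 with single-end runs (0.03%, against 10.3%) and 78 with counts outside peaks (1.17%, against 30.3%). The median was -1.39 with total counts, -0.0464 with counts outside peaks, and -1.12 to -0.996 with 1 Lgr5 Epcam+ sample. In Lgr5 Epcam- against Lgr5 Epcam+, members higher were 62 with total counts, 36 with paired-end runs and 9 with counts outside peaks (against 9.68%, 6.22% and 5.7% of all peaks), the last with 397 lower (5.95%, against 10.3%) and a median of -0.50. That median turned to 0.10 with total counts and was -0.127 to 0.0169 with 1 Lgr5 Epcam+ sample. In Lgr5 Epcam+ against K14 Epcam+, members lower were 2 with total counts, 1 with single-end runs and 1 with counts outside peaks (against 0.0423%, 0.0316% and 0.031% of all peaks), and the median was -0.37 with total counts and 0.18 with counts outside peaks. The causes were not tested.

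List shares at 10 kb in place of 50 kb were 22.0%, 11.4% and 8.90% for the suprabasal, lipid and transcription factor lists. No paired analysis was possible because only Lgr5 Epcam+ has more than 1 sample. IFE is 1 sample, so no value of it has a biological error, and members near the limit of 1 or with few counts are the least certain.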

Other observations

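Among the 100 members at promoters, several of the strongest belonged to genes outside the lists used here, and the ones below were chosen after their values were seen. The promoter peak of Dnase1l2, a nuclease of cornifying keratinocytes, had 42.1 CPM in IFE, 14.9 in HF, 3.39 in K14 Epcam+, 5.60 and 6.82 in Lgr5 Epcam+ and 2.27 in Lgr5 Epcam-. All tumour samples were below HF there. That of Pycard, an inflammasome adaptor, had 53.9 CPM in IFE, 20.8 in HF and 3.87 to 11.3 in the tumours. The promoter peak of Bmp4, a growth factor, had another order: 41.6 CPM in IFE, 7.04 in HF, 2.49 in K14 Epcam+, 1.59 and 1.94 in Lgr5 Epcam+ and 10.1 in Lgr5 Epcam-, which stood above HF. In the single-end runs it had 36.2 CPM in IFE and 10.6 in Lgr5 Epcam-, against 9.31 in HF.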
